A study of Mus musculus with 2 samples.

Results

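The interleukin 1 and Ptgs2 inflammatory genes are 10 mouse genes of acute inflammation, Il1b, Il1a, Il1rn, Il1r2, Il1rap, Nlrp3, Tnf, Ptgs2, Ptges and Thbs1, and they were followed through the cells of MC38 tumours. They are 10 of the 32285 genes in the deposited count matrices, and all 10 were found by symbol. They were picked because Il1b, Il1r2, Ptgs2 and Thbs1 had very different levels in the 2 libraries of the series, so the difference between libraries is described below without a test. The question asked of the data was which cells carry it.

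The series holds 1 group, leukocytes sorted by flow cytometry from tumours of MC38, a mouse colon carcinoma line, on day 21, with 2 libraries labelled as replicates and made by droplet 3′ single-cell RNA-seq. The deposited data of the 2 libraries carry names with different words that the labels do not explain, so whether they come from mice of 1 line cannot be told from the labels. The labels give no mouse strain, genotype, sex, age or treatment, and do not say whether the replicates came from separate mice or from pooled tumours. Replicate 2 held 2937 barcodes with 5862342 UMIs (unique molecular identifiers, each counting 1 captured RNA molecule), and replicate 1 held 2749 barcodes with 5688000 UMIs. After the cell filters 2831 barcodes of replicate 2 and 2382 of replicate 1 were kept, with medians of 1385 and 1494.5 UMIs, and no barcode sequence was shared by the libraries. The libraries stand apart in other genes too. In kept barcodes Xist had 0 UMIs in replicate 2 and 1791 in replicate 1, the Y-linked gene Ddx3y had 200 and 0, and Lyz2, the lysozyme gene of mouse myeloid cells, had 49 and 18006. Each library is also the only one of its kind, so anything that differs between the 2 preparations cannot be told apart in the differences that follow.

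As background, interleukin 1β (Il1b) and interleukin 1α (Il1a) signal through a receptor that pairs with the accessory protein Il1rap, while the antagonist Il1rn and the decoy receptor Il1r2 hold that signal back. Nlrp3 is the sensor of the inflammasome that activates caspase 1, which cleaves pro-interleukin 1β, and Tnf encodes tumour necrosis factor. Ptgs2 (cyclooxygenase 2) and the terminal synthase Ptges act one after the other in making prostaglandin E2, and Thbs1 encodes the matrix protein thrombospondin 1. Monocytes, macrophages and neutrophils are the best known sources of interleukin 1β in tumours.

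Both libraries were clustered together without the 10 genes and without 6 gene lists of related pathways, and clusters were named from marker genes. Levels are given in CPM, a gene's UMIs scaled to a common total of UMIs over the cells named, and their intervals are exact 95% Poisson intervals that cover counting error only. The largest myeloid class, 954 cells of replicate 2 and 608 of replicate 1, is called C1q-rich after the complement genes C1qa, C1qb and C1qc. It was not called macrophage, because 2 of its 3 clusters had no macrophage marker among their 10 leading genes and had 1 of another type, Plac8 of monocytes or Cadm1 of type 1 dendritic cells. Dendritic-like cells numbered 152 and 701, neutrophil-like cells 159 and 29, T and NK cell-like cells 434 and 255, plasmacytoid dendritic-like cells 19 and 27, and monocyte-like cells 16 and 34, in replicate 2 and replicate 1 in that order. A further 1043 and 701 cells had hardly any Ptprc, which encodes CD45 on leukocytes, at 8.24 and 6.01 CPM in replicate 2 and replicate 1, against 413 and 172 CPM in C1q-rich cells. They are called Ptprc-low, and the sort for leukocytes did not remove them.

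Taken over all kept cells, 8 of the 10 genes were past 2-fold higher in replicate 2 than in replicate 1. The same was true of 16.5% of the 12495 genes with at least 10 UMIs, with 5.87% past 2-fold lower, and since the genes were chosen on this contrast the count is only a description. Il1b had 1792 UMIs in replicate 2, against 171 in replicate 1, or 314 against 31.6 CPM. Ptgs2 had 493 UMIs against 27, or 86.4 against 4.99 CPM, the widest ratio of the 10 at 17.3-fold. Il1r2 had 72.2 CPM in replicate 2 and 7.95 CPM in replicate 1, and Thbs1 had 135 and 15.3 CPM. Il1rap (25.4 against 4.07 CPM), Il1rn (97.8 against 22.0 CPM) and Ptges (69.0 against 17.6 CPM) were also past 2-fold. Il1a, the last of the 8, was close to absent, with 11 UMIs in replicate 2 and 3 in replicate 1. Its log2 interval, -0.12 to 4.28, includes 0. Nlrp3 and Tnf were the exceptions, with Nlrp3 at 19.6 and 14.4 CPM and Tnf at 22.2 and 23.5 CPM in replicate 2 and replicate 1.

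The genes of both interleukin 1 ligands lie near each other on chromosome 2. In GENCODE on GRCm38, the assembly also called mm10, Il1a spans positions 129299610 to 129309972 and Il1b spans 129364570 to 129371139, both on the minus strand. The antagonist Il1rn lies far from them at 24336853 to 24351494 on the plus strand. The RefSeq table of promoters held windows for 9 of the 10 genes. The 250 bases before the start site, 5′ to 3′ on the gene's strand in GRCm38.p6, are shown for 3 genes with a wide difference between the libraries and for Tnf, which had nearly none. Il1b lies at chr2:129371140-129371389 (minus strand), Il1r2 at chr1:40085843-40086092 (plus strand), Ptgs2 at chr1:150099781-150100030 (plus strand) and Tnf at chr17:35202008-35202257 (minus strand). The Il1r2 window lies inside the GENCODE span of the gene, since RefSeq places its start further downstream. Capitals mark matches on either strand to 5 motifs: the NF-kB consensus, AP-1 (TGANTCA), the cyclic AMP response element (TGACGTCA), the E-box (CACGTG) and the TATA box (TATAAA).
Il1b: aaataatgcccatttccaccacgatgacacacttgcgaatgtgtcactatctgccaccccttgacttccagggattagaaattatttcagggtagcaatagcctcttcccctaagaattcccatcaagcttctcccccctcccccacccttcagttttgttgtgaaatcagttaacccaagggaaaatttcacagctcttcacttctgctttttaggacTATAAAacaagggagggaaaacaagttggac
Il1r2: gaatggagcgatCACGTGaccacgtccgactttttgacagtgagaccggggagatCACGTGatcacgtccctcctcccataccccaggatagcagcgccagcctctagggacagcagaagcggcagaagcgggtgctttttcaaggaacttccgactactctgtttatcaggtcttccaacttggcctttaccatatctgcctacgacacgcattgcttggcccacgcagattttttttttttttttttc
Ptgs2: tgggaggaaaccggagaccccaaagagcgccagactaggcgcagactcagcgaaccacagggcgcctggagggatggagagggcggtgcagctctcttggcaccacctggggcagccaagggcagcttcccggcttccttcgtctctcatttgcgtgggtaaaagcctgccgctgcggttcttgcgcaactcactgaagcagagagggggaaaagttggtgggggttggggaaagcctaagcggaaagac
Tnf: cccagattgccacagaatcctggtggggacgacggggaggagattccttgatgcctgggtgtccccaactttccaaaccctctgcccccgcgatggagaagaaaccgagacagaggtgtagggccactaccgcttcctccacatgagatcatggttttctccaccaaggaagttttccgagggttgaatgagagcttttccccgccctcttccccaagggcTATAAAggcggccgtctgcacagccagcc

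Il1b and Tnf both had a TATA match, beginning 31 and 29 bases upstream of the start, a motif found in 12.4% of all 32851 promoter windows of this length. Il1r2 had 2 E-box matches, at 238 and 195 bases upstream, a motif found in 6.02% of windows. Ptgs2 had no match in this window. Among the genes not printed, Il1a had a TATA and an AP-1 match, Il1rn had an AP-1 match in 1 of its 3 windows and Nlrp3 had an NF-kB match in 1 of its 2. AP-1 was found in 6.75% and NF-kB in 7.25% of all windows, and no 2 matches overlapped. Of the 5 motifs, none was shared by Il1b, Il1r2 and Ptgs2. A match is a description of letters and no evidence of binding.

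Counted over the 10 genes, members past 2-fold higher in replicate 2 were found in every large class. Here, for the members as for all genes, 0 UMIs were counted as 0.5. They were 6 of the 7 with at least 10 UMIs in neutrophil-like cells, where 35.7% of genes were past 2-fold higher and 4.88% lower. The 6 include Tnf, with 13 UMIs in replicate 2 and 0 in replicate 1, which allow no fold to be given. They were 5 of 7 in dendritic-like cells, with 1 lower (17.6% of genes higher and 10.9% lower), 5 of 8 in T and NK cell-like cells (16.8% and 4.47%) and 6 of 7 in Ptprc-low cells (25.3% and 8.55%).

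The difference between libraries in Il1b ran through every leukocyte class and was widest in counts in the C1q-rich cells. C1q-rich cells had 743 CPM (698 to 790) of Il1b in replicate 2 and 39.5 CPM (29.8 to 51.5) in replicate 1, an 18.8-fold difference. Il1b was detected in 48.4% of C1q-rich cells of replicate 2 and in 5.59% of those of replicate 1, at median depths of 1150 and 1654 UMIs. With each cell thinned to 800 UMIs, which left 763 and 528 cells, the shares were 36.8% and 2.46%. Ptprc-low cells showed Il1b in 4.41% of cells of replicate 2 and 0.713% of cells of replicate 1, at medians of 2261 and 2059 UMIs. In C1q-rich cells the deeper library was the one with less Il1b.

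Among the leukocyte classes, neutrophil-like cells had the highest Il1b level in each library and the narrowest difference between the libraries. They had 995 CPM (868 to 1136) in replicate 2 and 398 CPM (243 to 615) in replicate 1, a log2 difference of 1.32 with a 95% interval of 0.66 to 2.06. In C1q-rich cells the log2 difference was 4.23. Dendritic-like cells had 467 CPM in replicate 2 and 59.1 in replicate 1, and T and NK cell-like cells had 539 and 45.4. Monocyte-like cells rest on 9 and 4 UMIs, at 705 and 79.7 CPM, and plasmacytoid dendritic-like cells on 25 and 1 UMIs, at 905 and 21.3 CPM. Ptprc-low cells had 16.2 CPM in replicate 2 and 3.87 in replicate 1, so even there the libraries differed 4.18-fold.

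**Figure D1:**
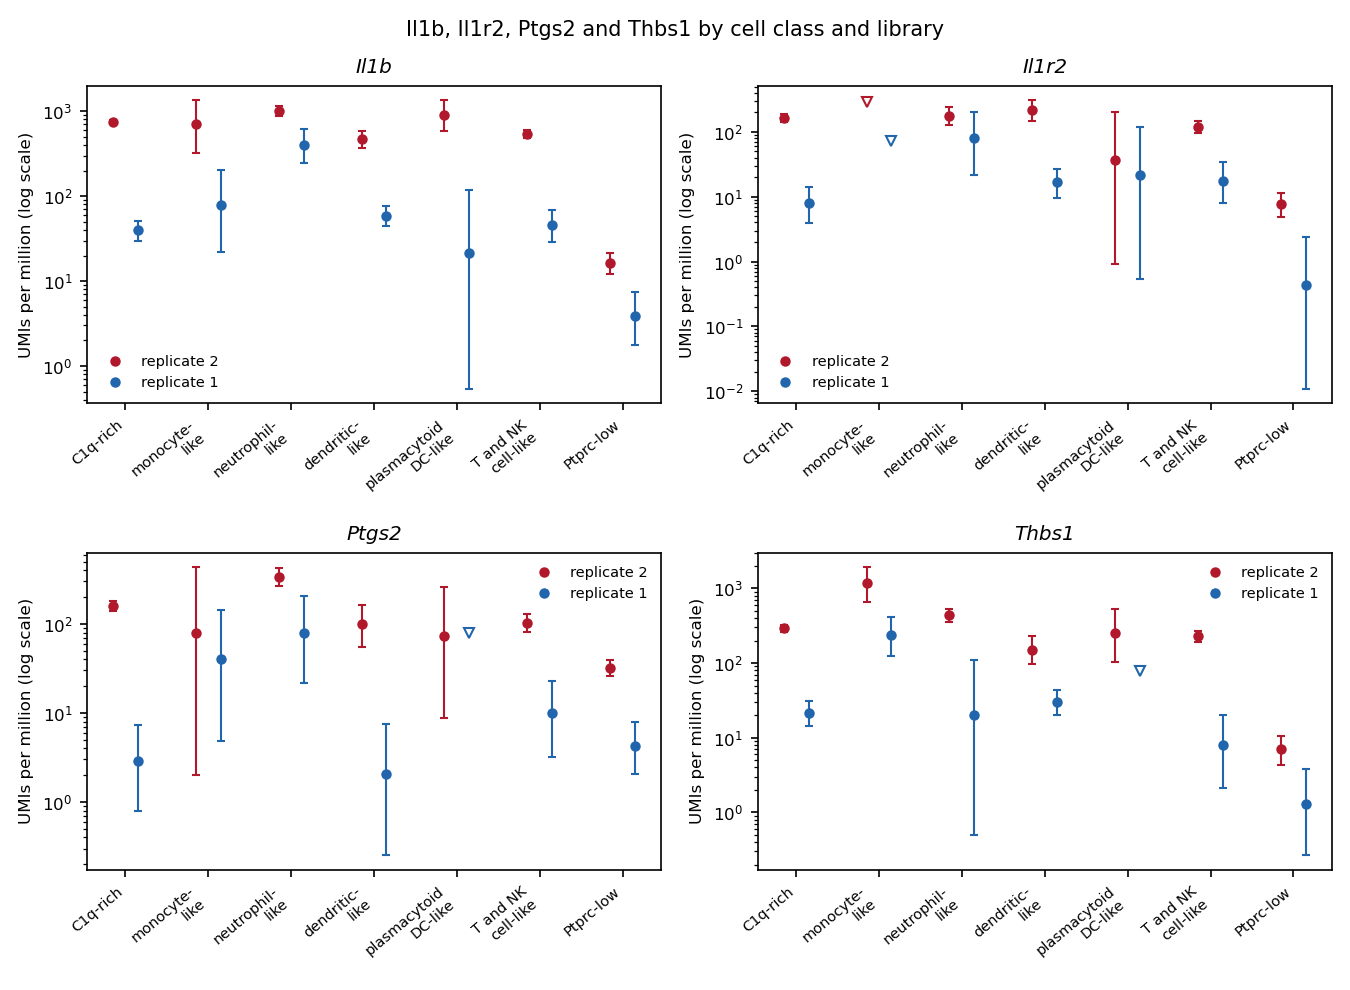
Levels of Il1b, Il1r2, Ptgs2 and Thbs1 (CPM, log scale) in 7 cell classes of replicate 2 (red) and replicate 1 (blue). Points are summed levels, bars exact 95% Poisson intervals, and open triangles mark the upper limit where a class had 0 UMIs. In C1q-rich cells the red points lie far above the blue ones for all 4 genes, with Il1b at 743 against 39.5 CPM, while in neutrophil-like cells Il1b stands at 995 against 398 CPM.

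The decoy receptor and the antagonist followed Il1b in the C1q-rich cells. Il1r2 had 163 CPM in C1q-rich cells of replicate 2 and 7.91 in those of replicate 1, from 226 and 11 UMIs, a 20.6-fold difference. In dendritic-like cells Il1r2 had 217 and 16.6 CPM. In neutrophil-like cells it had 176 and 79.7 CPM, where the 4 UMIs of replicate 1 leave a log2 interval from -0.32 to 3.09 that includes 0. Il1rn had 269 CPM in C1q-rich cells of replicate 2 and 28.8 in replicate 1, and 303 and 59.8 CPM in neutrophil-like cells. In dendritic-like cells Il1rn had 98.8 and 38.4 CPM, so its difference there was 2.57-fold. The type 2 dendritic cell-like cluster, 128 and 554 of these cells, had nearly equal Il1rn, at 57.6 and 55.0 CPM, beside 420 and 66.4 CPM of Il1b. In the mature migratory cluster Il1rn had 7 and 0 UMIs, and in the type 1 cluster 1 and 3. In the summed C1q-rich class, ligand, antagonist and decoy receptor thus all stood higher in replicate 2.

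Ptgs2 was nearly undetected in the C1q-rich cells of replicate 1, with 4 UMIs in 608 cells (2.88 CPM, interval 0.784 to 7.36). The C1q-rich cells of replicate 2 held 222 UMIs in 954 cells (160.3 CPM, interval 140 to 183), which makes a 55.7-fold ratio with a log2 interval of 4.42 to 7.69. Its highest level in a class of over 100 cells was in neutrophil-like cells of replicate 2, at 339 CPM, against 79.7 CPM from 4 UMIs in replicate 1. Dendritic-like cells had 98.8 and 2.07 CPM, and T and NK cell-like cells had 103 and 9.87 CPM. Ptgs2 also differed in Ptprc-low cells, at 32.0 CPM in replicate 2 and 4.30 CPM in replicate 1, intervals 26.1 to 38.9 and 2.06 to 7.90. The Ptprc-low signal sat mainly in 1 cluster of 219 cells of replicate 2 led by Nppb and Grem1, which had 100.2 CPM from 59 UMIs in 35 cells. The largest Ptprc-low cluster, 673 cells of replicate 2 led by Nefl, had 17.7 CPM, and the 615 cells of replicate 1 led by H19 and Dcn had 4.59 CPM.

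Thbs1 had 291 CPM in C1q-rich cells of replicate 2 and 21.6 in those of replicate 1, from 403 and 30 UMIs, a 13.5-fold difference. In neutrophil-like cells it had 97 UMIs in replicate 2 (439 CPM) and 1 UMI in replicate 1 (19.9 CPM). Monocyte-like cells had the highest Thbs1 level in both libraries, 1176 CPM (658 to 1939) in replicate 2 and 239 CPM (124 to 418) in replicate 1, from 15 and 12 UMIs. Outside the leukocytes, 41 fibroblast-like cells of replicate 2 had 822 CPM from 42 UMIs, and replicate 1 had too few such cells to give a level. Thbs1 was near its lowest in Ptprc-low cells, at 6.98 and 1.29 CPM.

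Nlrp3 and Tnf were expressed in the same C1q-rich cells but differed little between the libraries. Nlrp3 had 48.4 CPM in C1q-rich cells of replicate 2 and 28.0 in replicate 1, a 1.72-fold difference with a log2 interval of 0.20 to 1.39. Tnf had 56.3 and 33.8 CPM there, a 1.67-fold difference with an interval of 0.20 to 1.29. In dendritic-like cells Tnf went the other way, with 1 UMI in 152 cells of replicate 2 (6.58 CPM) and 39 UMIs in 701 cells of replicate 1 (40.5 CPM). In T and NK cell-like cells, another known source of the cytokine, Tnf had 43.5 and 53.3 CPM with overlapping intervals. In C1q-rich cells Tnf thus differed in the same direction as Il1b but far less, where the median of all genes was 0.19 on the log2 scale. In barcodes picked by C1q UMIs in place of clusters, described below, the log2 difference in Tnf was 0.37. Its interval there, -0.13 to 0.87, includes 0. In T and NK cell-like cells the wide difference in Il1b had no counterpart in Tnf.

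Most UMIs of Ptges and, in replicate 2, of Il1rap lay in the Ptprc-low cells, the class with the most UMIs in each library. Those cells held 95.2% of the Ptges UMIs of replicate 2 and 93.7% of those of replicate 1, and 110 of the 145 and 11 of the 22 Il1rap UMIs. Ptges had 119 CPM in Ptprc-low cells of replicate 2 and 38.2 CPM in those of replicate 1, and Il1rap had 34.9 and 4.73 CPM. The 41 fibroblast-like cells of replicate 2 had a higher level of Il1rap, 156 CPM from 8 UMIs, and 78.2 CPM of Ptges from 4 UMIs. All 3 Ptprc-low clusters of replicate 2 with over 100 cells expressed Ptges, at 98.9, 114 and 151 CPM, and both Ptprc-low clusters of replicate 1 stood lower, at 38.1 and 38.3 CPM. Il1r1, the signalling receptor of interleukin 1, had 50 UMIs in Ptprc-low cells of replicate 2 (15.9 CPM) and 1 UMI in those of replicate 1 (0.430 CPM). Fibroblast-like cells of replicate 2 had 9 UMIs of Il1r1 (176 CPM), and C1q-rich cells had 3 UMIs in replicate 2 and 0 in replicate 1. Clusters 2, 7 and 10 of replicate 2 hold no cell of replicate 1, so the Ptprc-low cells of the 2 libraries are not matched.

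**Figure D2:**
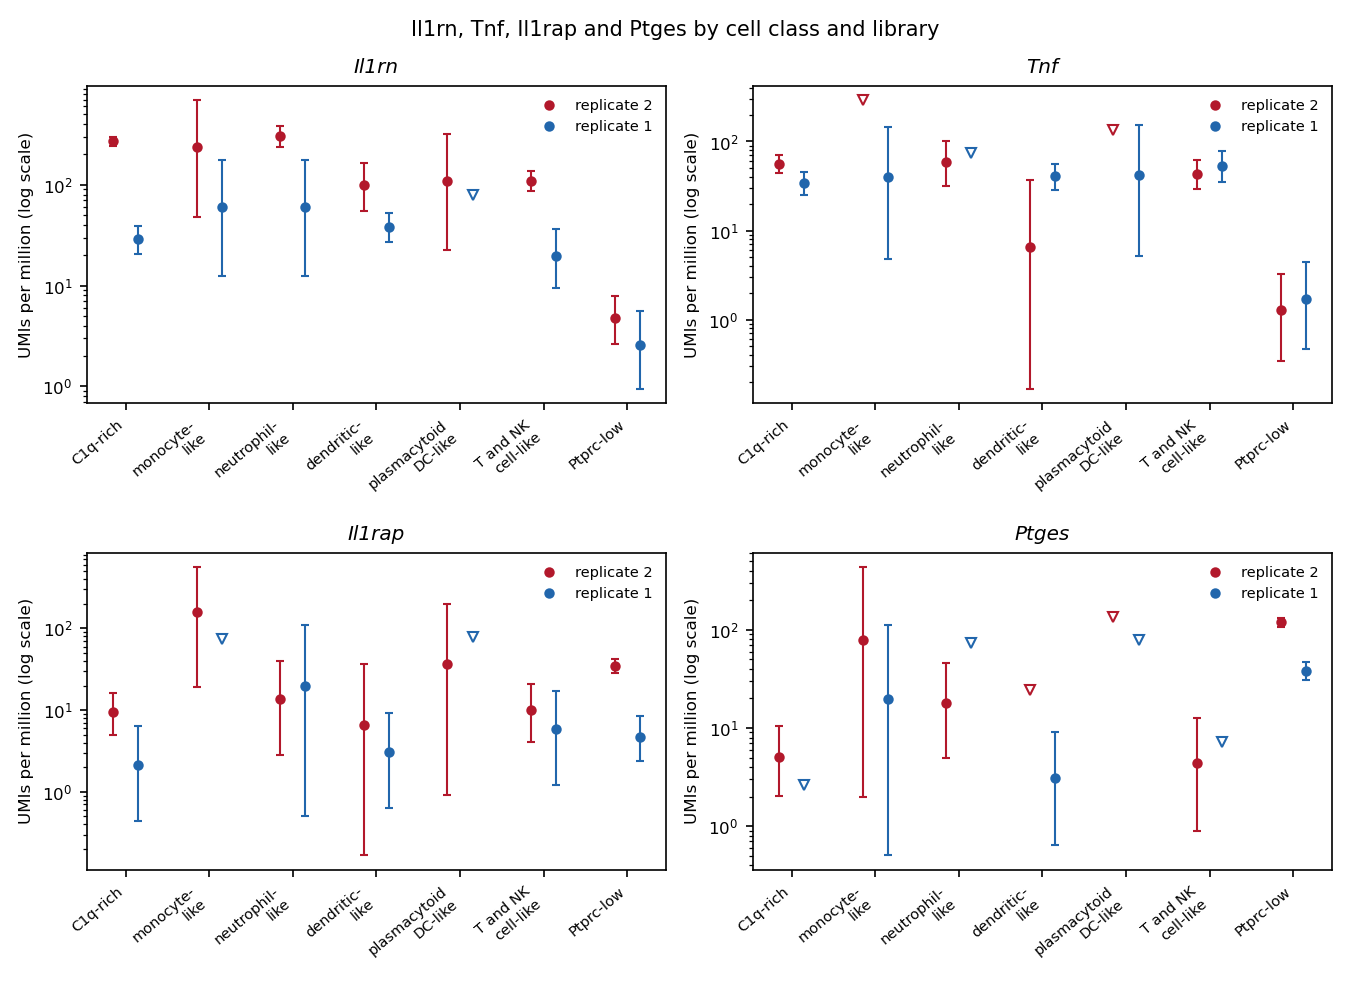
Levels of Il1rn, Tnf, Il1rap and Ptges (CPM, log scale) in 7 cell classes of replicate 2 (red) and replicate 1 (blue), with exact 95% Poisson intervals. Open triangles mark upper limits at 0 UMIs. In C1q-rich cells Il1rn stands at 269 and 28.8 CPM and Tnf at 56.3 and 33.8 CPM in replicate 2 and replicate 1, and in Ptprc-low cells Ptges stands at 119 and 38.2 CPM.

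Over all kept cells, the C1q-rich class carried more than any other class of the difference in Il1b, Il1rn, Il1r2, Ptgs2 and Thbs1. It held 60.3% of the extra Il1b of replicate 2, the T and NK cell-like class 21.6% and the neutrophil-like class 12.3%. The last 2 classes also carry RNA of macrophage markers. In T and NK cell-like cells these summed to 8283 CPM in replicate 2, beside 3707 CPM of T and NK markers. In replicate 1 they summed to 16790 CPM there, beside 2164 CPM of T and NK markers. In neutrophil-like cells they summed to 9870 CPM in replicate 2, beside 7228 CPM of neutrophil markers, and to 18426 beside 35817 CPM in replicate 1. The part of this RNA in the shares was not tested. For Thbs1 the C1q-rich share was 54.2%, for Il1r2 58.5% and for Il1rn 76.5%. Ptgs2 was spread more widely, with 46.9% in C1q-rich cells, 19.5% in Ptprc-low cells, 15.2% in neutrophil-like cells and 14.1% in T and NK cell-like cells. For Ptges 95.7% and for Il1rap 80.8% of the difference lay in Ptprc-low cells. The makeup of the libraries by class was also set equal, while the makeup by cluster inside each class was left as it was. With the class makeup of replicate 1, replicate 2 would have had 366 CPM of Il1b, against its 314 CPM as measured and 31.6 CPM in replicate 1. The same calculation gave 88.5 CPM for Ptgs2 and 150 CPM for Thbs1 in replicate 2, both above the levels as measured. Il1a, Il1rn, Il1r2 and Nlrp3 also came out above their measured levels. Ptges (53.8 against 69.0 CPM), Il1rap (21.5 against 25.4 CPM) and Tnf (21.7 against 22.2 CPM) came out below theirs. The part of makeup inside the classes was not tested.

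**Figure D3:**
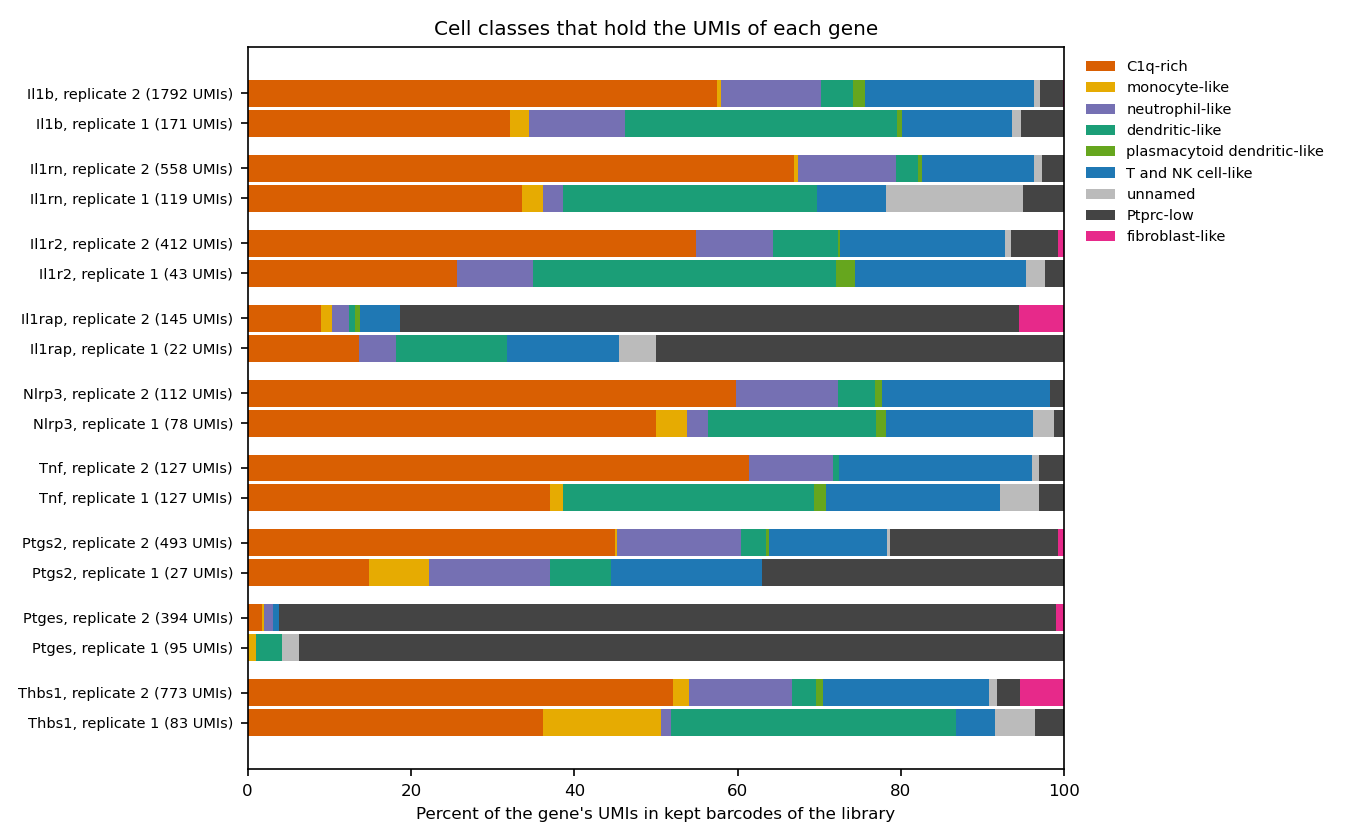
Share of the UMIs of 9 genes (percent of the gene's UMIs in kept cells, horizontal axis) held by each cell class, in replicate 2 (upper bar of each pair) and replicate 1 (lower bar). C1q-rich cells hold the largest part of Il1b in replicate 2, at 57.4%, and Ptprc-low cells hold 95.2% of Ptges in replicate 2 and 93.7% in replicate 1.

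The C1q-rich cells of the 2 libraries fell into different clusters. The 10 genes took no part in the clustering, but other genes that differ between the libraries were not left out, and no batch correction was made. Among those not left out was Lyz2, which was nearly absent from replicate 2. Cluster 0 had 700 cells of replicate 2 and 11 of replicate 1, and its 10 leading genes, Ly6i, Fpr2, Lyz1, Il1b, Il1rn, Clec4e, Thbs1, Il1r2, Plac8 and Ifitm1, include 4 of the genes described here, which were chosen for a difference between the same libraries. Cluster 4, led by Lyz2, Fcrls, Apoe and Trem2, had 28 cells of replicate 2 and 585 of replicate 1. Cluster 6, led by Gbp2b, Ccl8 and Marco, had 226 and 12. A cluster mostly of 1 library may be that library and not a type, so the levels are given by cluster too. Il1b had 876 CPM in cluster 0 of replicate 2 and 111 CPM, from 2 UMIs, in cluster 0 of replicate 1. In cluster 4 it had 243 CPM from 10 UMIs in replicate 2 and 37.5 CPM from 51 UMIs in replicate 1. In cluster 6 it had 393 CPM in replicate 2 and 161 CPM, from 2 UMIs, in replicate 1. The log2 differences in Il1b were 2.98, 2.70 and 1.29 in clusters 0, 4 and 6, each point value smaller than the 4.23 of the summed class. Their 95% intervals were 1.13 to 6.03, 1.55 to 3.69 and -0.59 to 4.35. Only the interval of cluster 4 lay below the class value, and that of cluster 6 includes 0.

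The other genes were thinner in matched clusters. Il1r2 had 122 CPM from 5 UMIs in cluster 4 of replicate 2 and 8.09 CPM from 11 UMIs in replicate 1, with a log2 interval of 2.04 to 5.55. Thbs1 had 24.3 CPM from 1 UMI in cluster 4 of replicate 2 and 21.3 CPM from 29 UMIs in replicate 1, so no difference was detectable there at this depth. For Ptgs2 cluster 4 had 1 and 4 UMIs. Within replicate 2, cluster 0 had more Thbs1 than cluster 6, at 373 against 70.1 CPM, more Ptgs2, at 197 against 64.0 CPM, and more Il1r2, at 207 against 33.5 CPM, while Nlrp3 (53.1 and 39.6 CPM) and Tnf (50.2 and 70.1 CPM) were of a similar level. These contrasts between clusters are descriptions of how the clusters differ.

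Among single cells of cluster 0 in replicate 2, 322 of 700 had no Il1b UMI, 182 had 1, 83 had 2 and 113 had 3 or more, with a maximum of 18. Il1b was found in 60.5% of the 147 cells with a Ptgs2 UMI and in 52.3% of the 553 cells without one, and in 67.8% of the 180 cells with Thbs1 and 49.2% of the 520 without. The cells with Ptgs2 or Thbs1 were also deeper, at medians of 1419 and 1459 UMIs, against 1094 and 1071.5 UMIs in cells without them. Cells with both Il1b and Ptgs2 numbered 89, and cells with both Il1b and Thbs1 numbered 122.

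C1q RNA was found in most leukocyte classes, and Il1b has to be read beside it. The summed level of C1qa, C1qb and C1qc was 6884 CPM in C1q-rich cells of replicate 2 and 11014 CPM in those of replicate 1. It was 5482 and 6952 CPM in neutrophil-like cells, 4312 and 6255 CPM in T and NK cell-like cells, and 4042 and 4879 CPM in dendritic-like cells. Monocyte-like cells had only 627 and 379 CPM, and Ptprc-low cells 91.0 and 219 CPM. In replicate 2, Il1b came to 10.8 UMIs per 100 C1q UMIs in C1q-rich cells, 11.6 in dendritic-like cells and 12.5 in T and NK cell-like cells. In replicate 1 the same ratio was 0.359 in C1q-rich cells, 1.21 in dendritic-like cells and 0.726 in T and NK cell-like cells. The ratios of the 3 classes thus lay close together in replicate 2 and less so in replicate 1. Neutrophil-like cells had 18.2 Il1b UMIs per 100 C1q UMIs in replicate 2 and 5.73 in replicate 1. Monocyte-like cells had 9 Il1b UMIs beside 8 C1q UMIs in replicate 2, and 4 beside 19 in replicate 1. The part of C1q-bearing RNA in the class levels was not tested beyond these ratios.

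**Figure D4:**
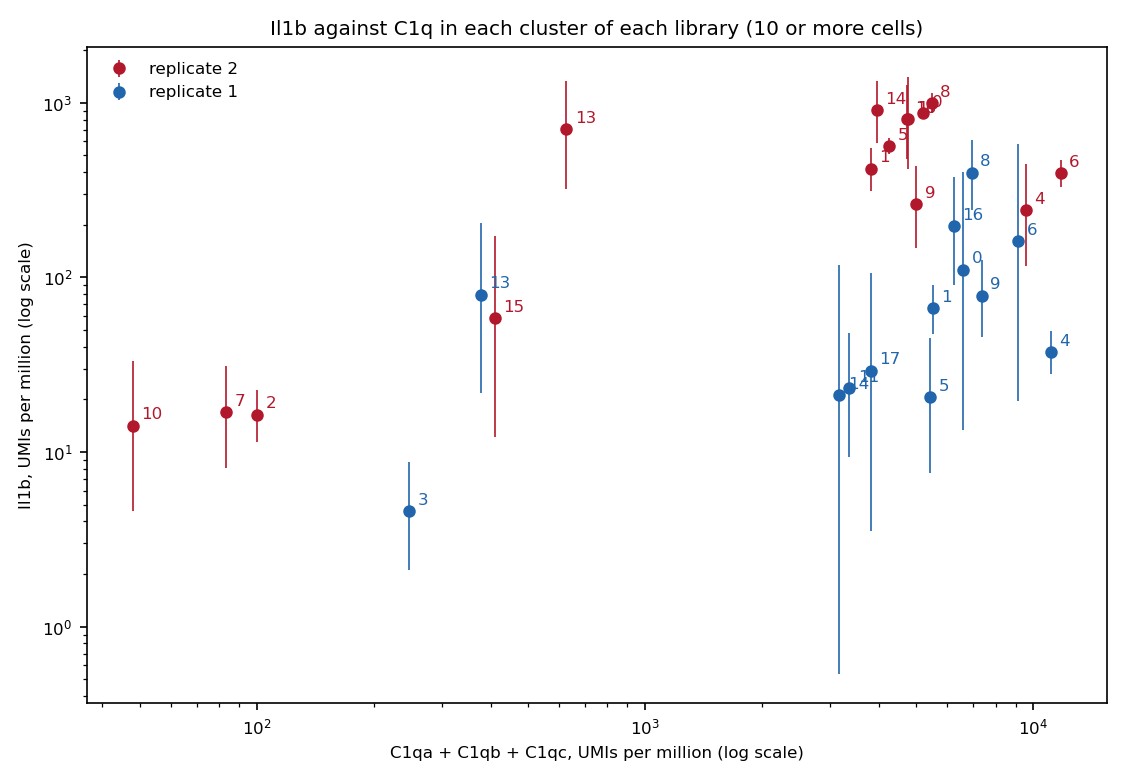
Il1b against the summed C1q genes (both in CPM, log scales) in each cluster of replicate 2 (red) and replicate 1 (blue) with at least 10 cells; numbers are cluster numbers, and bars exact 95% Poisson intervals of Il1b. Clusters 0, 4 and 6 are C1q-rich, 8 neutrophil-like, 13 monocyte-like, 1, 11 and 16 dendritic-like, 14 plasmacytoid dendritic-like, 5 and 9 T and NK cell-like, 15 fibroblast-like, 17 unnamed, and 2, 3, 7 and 10 Ptprc-low. In every cluster drawn for both libraries the red point lies above the blue one, with Il1b at 995 CPM in cluster 8 of replicate 2 and 398 CPM in that of replicate 1.

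Sorting barcodes by a few lineage genes in place of clusters gave, for monocyte and neutrophil genes, a view free of most C1q RNA. Among barcodes with at most 2 C1q UMIs and at least 2 UMIs of the monocyte genes Ly6c2, Chil3, Ccr2 and Plac8, 165 belonged to replicate 2 and 71 to replicate 1. In these, Il1b had 949 CPM from 172 UMIs in replicate 2 and 14.7 CPM from 2 UMIs in replicate 1, and Thbs1 had 497 and 73.6 CPM. The gate held different cells in the 2 libraries, since 111 of the 165 barcodes of replicate 2 lay in the C1q-rich clusters and 1 of the 71 of replicate 1, where 29 were dendritic-like and 25 monocyte-like. Neutrophil barcodes poor in C1q were few, 11 of replicate 2 and 3 of replicate 1, with 16 and 5 UMIs of Il1b (1699 and 1576 CPM), and no difference was detectable in them. Barcodes with 3 or more C1q UMIs that passed no other gate, 779 of replicate 2 and 956 of replicate 1, had 659 and 52.0 CPM of Il1b. Only the T and NK cell and Ptprc-low gates could exclude them, since the other gates ask for at most 2 C1q UMIs. This gate is thus mixed, and it held 57 dendritic-like cells of replicate 2 and 317 of replicate 1, and 80 and 19 neutrophil-like cells.

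Differences between cell classes, which were not what the genes were chosen on, were tested with edgeR's quasi-likelihood test on UMIs summed per class and library. The fit held 10 sums (5 classes in 2 libraries), with the library as a block, 4 residual degrees of freedom and 8381 genes. It tested 9 of the 10 genes, since Il1a fell under the filter on low counts. Classes come from clusters, so genes that vary along with the clustering genes can differ between classes by construction, and p-values measure only how far class differences varied between 2 libraries, which may be technical.

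Against C1q-rich cells, neutrophil-like cells had higher point values of Il1b and Ptgs2, but no member passed the adjusted threshold of 0.05. Of all genes, 0.191% were called, 16 of 8381. On the log2 scale Il1b was at 1.40 (SE 0.42, adjusted p = 0.478 by edgeR) and Ptgs2 at 1.62 (SE 0.49, adjusted p = 0.482 by edgeR). These were the 2 of 9 genes with an unadjusted p under 0.05, as were 4.62% of all genes, and DESeq2 called 0. The 2 libraries differed in this contrast: Il1b was 0.42 higher on the log2 scale in neutrophil-like cells of replicate 2 and 3.12 higher in those of replicate 1, and Ptgs2 1.08 and 4.52 higher. Il1b was called by edgeR (adjusted p = 0.0156) when the fit held the 2 classes alone, and over all alternatives with a test 0 or 1 member was called. Neutrophil markers summed to 7228 CPM in the neutrophil-like cells of replicate 2 and 35817 CPM in those of replicate 1, with 8 of 8 markers detected in both; the part of this gap in the contrast was not tested. Il1rn (0.47), Il1r2 (0.66), Thbs1 (0.62), Nlrp3 (0.40) and Tnf (-0.07) had log2 fold changes within 2 standard errors of 0.

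Dendritic-like cells did not differ detectably from C1q-rich cells in any member, and 0 of 9 were called by edgeR, 0 had an unadjusted p under 0.05 and DESeq2 called 0. Of all genes, 0.143% were called, 0.131% higher and 0.0119% lower, and 4.45% had an unadjusted p under 0.05. The log2 fold changes ran from -0.72 (SE 0.55) for Ptgs2 to 0.60 (SE 0.42) for Il1r2, leaving aside Il1rap and Ptges, which had under 4 UMIs in dendritic-like cells of either library. The direction for Il1b was -0.16 in the fit, and it turned to 0.75 in replicate 1 alone. Macrophage markers summed to 7551 CPM in dendritic-like cells of replicate 2 and 14011 CPM in those of replicate 1, against 12470 and 33200 CPM in C1q-rich cells. Type 1, type 2 and mature migratory dendritic markers summed to only 691, 922 and 764 CPM in dendritic-like cells of replicate 2. In replicate 1 they summed to 941, 621 and 417 CPM. C1q-rich cells had 585, 726 and 212 CPM of them in replicate 2 and 413, 395 and 122 CPM in replicate 1. At clustering resolution 2 the dendritic-like class held 70 and 289 cells, so it cannot be read as dendritic cells alone. Cluster 1, the largest dendritic-like cluster, had 2190 CPM of C1qa over both libraries, beside 1936 CPM in C1q-rich cluster 0. Of the dendritic-like cells, 57 of replicate 2 and 317 of replicate 1 passed the C1q gate alone. The dendritic gate, which asks for at most 2 C1q UMIs, was passed alone by 9 and 17. The part of macrophage and C1q RNA in these values was not tested.

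Ptprc-low cells differed from C1q-rich cells in all 9 genes tested, where 42.9% of all genes were called. Ptges was higher in Ptprc-low cells by 5.14 on the log2 scale (SE 0.57, adjusted p = 6.40e-09 by edgeR) and Il1rap by 1.78 (SE 0.54, adjusted p = 0.00812 by edgeR). The other 7 were lower there. Il1b fell by 4.65 on the log2 scale (SE 0.48), Il1rn by 4.87, Il1r2 by 4.06, Thbs1 by 4.92, Tnf by 4.67 and Nlrp3 by 5.73, each with an edgeR adjusted p under the threshold. The median log2 fold change of the 9 genes was -4.65, beside 0.01 over all 8381 genes. Ptgs2 fell by 1.55 (SE 0.47, edgeR adjusted p = 0.00851), the least of the 7. Its direction depended on the library: it was 2.28 lower on the log2 scale in Ptprc-low cells in replicate 2 alone, and 0.82 higher in replicate 1 alone, where C1q-rich cells held only 4 UMIs. In edgeR without the block neither Ptgs2 (adjusted p = 0.277) nor Il1rap (adjusted p = 0.0747) was called. Ptgs2 also lost its call at clustering resolution 2 (adjusted p = 0.0704), with DESeq2 (0.316) and with the 2 classes alone in the fit (0.0787), and Il1rap lost it with gates (0.0546) and with the stricter cell filter (0.0621).

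Monocyte-like cells, with 16 cells in replicate 2, stood below the 20 cells set for the fit. When they were let in with a minimum of 15 cells, an alternative chosen after the data were seen, 1 of 9 genes was called, where 1.08% of 7621 genes were, 0.157% higher and 0.919% lower. That gene was Thbs1, higher in monocyte-like than in C1q-rich cells (SE of the log2 fold change 0.48, adjusted p = 0.00805 by edgeR) and higher in both libraries, at 1176 against 291 CPM in replicate 2 and 239 against 21.6 CPM in replicate 1. With gates in place of clusters Thbs1 was not called (adjusted p = 0.507 by edgeR). Il1b had a log2 fold change of -0.35 (SE 0.54, adjusted p = 0.801 by edgeR) with the minimum of 15 cells.

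**Figure D5:**
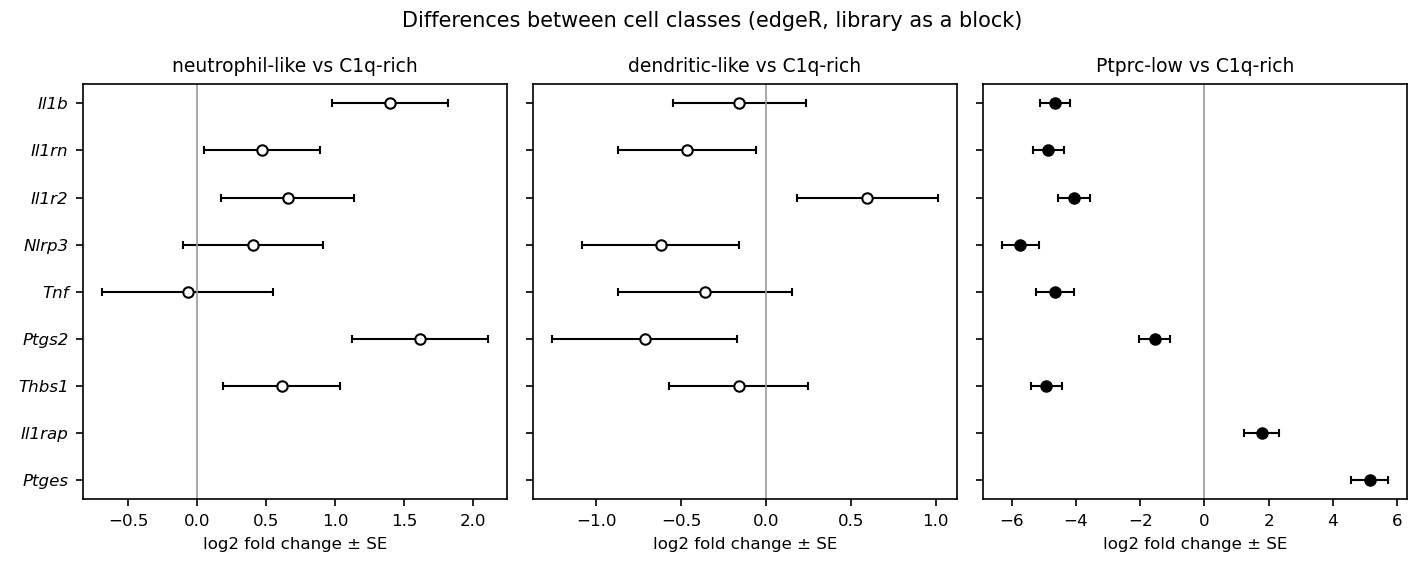
Log2 fold changes with standard errors (horizontal axis) of members in neutrophil-like, dendritic-like and Ptprc-low cells against C1q-rich cells, from edgeR over 10 sums with the library as a block; the axes of the 3 panels differ in range. Filled points passed an adjusted p of 0.05: none in the first panels, and all 9 in the Ptprc-low panel, from -5.73 for Nlrp3 to 5.14 for Ptges.

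The pathways around the 10 genes were followed with 6 lists. In C1q-rich cells 13.1% of 9565 genes were past 2-fold higher in replicate 2 than in replicate 1 and 5.43% past 2-fold lower, and the median of all genes was 0.19 on the log2 scale. Of the 8 members with at least 10 UMIs there, 6 were past 2-fold higher. In the list of NF-kB response genes 16 of 32 genes were past 2-fold higher and 1 lower, with a median log2 ratio of 0.99. Clec4e, a receptor of dying cells and mycobacteria, had 182 CPM in replicate 2 and 14.4 in replicate 1, Tnfaip2 had 422 and 68.3, the chemoattractant receptor-like gene Ccrl2 had 107 and 25.9, and the acute phase gene Saa3 had 41.2 and 6.47. Immediate early genes had 11 of 23 past 2-fold higher and 0 lower, with a median of 0.85. Dusp1, a phosphatase that turns off MAP kinases, had 666 and 188 CPM, Egr1 had 180 and 58.2, Nr4a1 had 72.2 and 11.5, and Dusp2 had 76.5 and 18.7. Similar shifts were found in some other classes. The NF-kB list had 14 of 29 genes past 2-fold higher in dendritic-like cells, where 17.6% of all genes were. It had 11 of 20 in neutrophil-like cells (35.7%) and 7 of 28 in Ptprc-low cells (25.3%), with 2, 0 and 3 lower. Immediate early genes had 9 of 22, 3 of 18 and 9 of 22 higher in the same order, and 0, 0 and 1 lower.

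In the list of the interleukin 1 family and the inflammasome 8 of 28 genes were past 2-fold higher and 0 lower, with a median of 0.49. Casp4, the caspase that senses lipopolysaccharide inside cells, had 69.3 CPM in replicate 2 and 16.5 in replicate 1, and Il18bp, which binds interleukin 18, had 134 and 43.9. Casp1, which cleaves pro-interleukin 1β, had 90.2 and 43.9 CPM, and Il18 had 28.2 and 14.4. Prostaglandin and leukotriene genes went both ways, 2 of 14 past 2-fold higher and 2 lower, with a median of 0.04. Pla2g4a, the phospholipase that releases arachidonic acid for Ptgs2, had 58.5 and 19.4 CPM, and Pla2g7 had 433 and 137. Ptgs1, the constitutive cyclooxygenase, had 18.0 CPM in replicate 2 and 32.4 in replicate 1, the opposite order to Ptgs2, and the prostaglandin D2 synthase Hpgds had 46.2 and 76.2. In the TNF list 1 of 12 was past 2-fold higher, the receptor Tnfrsf1b at 91.0 and 41.0 CPM, with a median of 0.48. In the thrombospondin list 0 of 7 were past 2-fold, with a median of 0.06, and the receptors Cd47 (251 and 165 CPM) and Cd36 (27.4 and 43.9 CPM) had opposite orders.

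The same lists were followed between classes. In neutrophil-like against C1q-rich cells the NF-kB list had 1 of 32 genes called, the neutrophil chemoattractant Cxcl2, higher by 1.91 on the log2 scale (SE 0.34, edgeR adjusted p = 0.00301), and the other 5 lists had 0 called, where 0.191% of all genes were called. In dendritic-like against C1q-rich cells all 6 lists had 0 called, where 0.143% of all genes were, so neither contrast sets the lists apart. In monocyte-like against C1q-rich cells, with the minimum of 15 cells, the chemokines Ccl4 and Ccl5 of the NF-kB list were lower, with log2 fold changes of -3.01 (SE 0.62, adjusted p = 0.00106 by edgeR) and -2.13 (SE 0.56, adjusted p = 0.0225 by edgeR). There the immediate early gene Nr4a1 was higher by 2.67 (SE 0.59, adjusted p = 0.00244 by edgeR), and the other 4 lists had 0 called. In Ptprc-low cells 23 of 32 NF-kB genes were called lower and 2 higher, 13 of 26 interleukin 1 family genes lower and 1 higher, and 16 of 24 immediate early genes lower and 2 higher, where 23.6% of all genes were lower and 19.3% higher. The 1 gene called higher in the interleukin 1 family was Il1rl1, the receptor of interleukin 33, at 3.81 (SE 0.59, edgeR adjusted p = 3.29e-06). The inflammasome adaptor Pycard fell by 5.09 (SE 0.36, edgeR adjusted p = 6.45e-13). Of the prostaglandin list 7 of 12 were lower and 2 higher, with Alox5ap, which hands arachidonic acid to the leukotriene pathway, fallen by 4.24 and Hpgds by 6.77. In the TNF list 9 of 11 were lower and 0 higher, and in the thrombospondin list 4 of 8 and 0.

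Genes most alike in pattern over the 10 sums of the fit were ranked by Pearson's r of log2(CPM + 1), as a description. The points share 2 libraries and the RNA that classes of 1 library have in common. For Il1b they were Il1r2 and Myl12b (r = 0.981 each), Fpr2 (0.980) and Clec4e and Glrx (0.978 each). For Il1r2 they were Nr4a1 (0.985), Il1b (0.981), Nfil3 (0.976), Glrx and Ifitm1 (0.965 each). Thbs1 came with Clip1 (0.984), Ifitm3 (0.975), Rnf114 (0.974), Ifitm2 and Dnase1l3 (0.970 each). Ptgs2 had looser company, Nap1l4 (0.950), Vmp1 (0.927), Api5 (0.925), Fbxl5 (0.920) and Runx2 (0.914).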

How the data were processed

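Single-cell RNA-seq (10x 3′ kit, per the labels' protocols) was made from sorted tumour leukocytes. The deposited matrices hold whole-number counts per gene and barcode, taken as raw UMI counts from their values and the kit. Tools in the submitters' processing notes are Cell Ranger 6.0.1 and Seurat 4.0.1, with mm10 as the build. The gene annotation used for counting is not given in the sources used here.

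These 10 genes, the gene lists and the comparisons were chosen with earlier results of these data known, and the thresholds that name clusters were set after the clusters were seen. Barcodes with at least 300 genes and under 10% mitochondrial UMIs were kept (2837 of replicate 2 and 2388 of replicate 1). Scrublet called 6 in each a doublet, under 0.5%, so it has not worked, and doublets can remain. Counts were scaled to 10000 per cell, logged and clustered (scanpy 1.11.5, leidenalg 0.10.2; 2000 variable genes without the 10 genes, the 6 lists, sex-linked and mitochondrial genes; 30 components, 15 neighbours, resolution 1; no batch correction). Classes with at least 20 cells in each library were summed for edgeR 4.0.16 under R 4.3.3 (quasi-likelihood test, TMM, filterByExpr, library as a block, Benjamini-Hochberg over all genes tested, threshold 0.05). The replicate number pairs the sums, since the classes of a contrast were taken from 1 library each time. Monocyte-like cells were too few, so that contrast is given with a minimum of 15 cells. DESeq2 1.42.0 was an alternative. The code was tested on simulated data. A fold between libraries against 0 UMIs was not given. All members and, from each list, up to 4 genes by lowest adjusted p or by widest library ratio among genes with at least 50 UMIs were named. Library sizes and depths are given with the report; intervals cover counting error only.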

Additional observations from a re-analysis of the deposited data

How the results depend on the processing

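Of the counts of members called and the C1q-rich library ratios of Il1b, Il1r2, Ptgs2 and Thbs1, 50 values under alternatives stayed on their side or close by and 9 moved. The count for neutrophil-like cells was 1 with the 2 classes alone in the fit and the replicate block (Il1b), against 0 otherwise. For monocyte-like cells, too few for the planned fit, the count was 1 with a minimum of 15 cells (chosen after seeing the data) and 1 at clustering resolution 2, and 0 with gates on lineage genes. Without the replicate block 0, 0 and 7 members were called in neutrophil-like, dendritic-like and Ptprc-low cells, against 0, 0 and 9 with it. The C1q-rich log2 ratio of Il1b was 3.66 with gates, and 2.98, 2.70 and 1.29 in clusters 0, 4 and 6 alone, against 4.23. Ptgs2 was 3.05 in cluster 4 alone, and Thbs1 was 2.75 in cluster 0 and 0.19 in cluster 4. TMM scaling moved all ratios between libraries by -0.19 on the log2 scale in C1q-rich cells, -0.49 in dendritic-like cells and -0.33 in Ptprc-low cells, and turned none of the C1q-rich ratios.

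Some directions turned, all but 1 of them in differences that no test called. In neutrophil-like cells Tnf was 0.0727 when thinned. It was 0.0595 without replicate 1 and -8.00 without replicate 2, the last a fitted value against 0 UMIs, and Thbs1 was 0.59 without replicate 1 and -0.32 without replicate 2. In dendritic-like cells Il1rn was 0.32 and Il1b 0.11 with doublets kept, and Il1b was 0.0938 at resolution 2. Without replicate 1 and without replicate 2 in turn, Il1rn was -1.45 and 0.59, Thbs1 -0.95 and 0.65, Il1b -0.68 and 0.75, and Tnf -3.08 and 0.43. In monocyte-like cells Il1b was 0.0516 with gates and 0.0041 at resolution 2. The called one was Ptgs2 in Ptprc-low cells, -2.28 without replicate 1 and 0.82 without replicate 2. Between libraries, Nlrp3 was -0.0605 in cluster 0 alone. Gated neutrophil barcodes held 3 and 2 UMIs of Il1r2, too few for a ratio, as for Il1r2 and Il1rn in gated dendritic barcodes and Il1a with the stricter cell filter. The causes were not tested. Gates left too few neutrophil and dendritic barcodes for a fit, and the stricter cell filter too few neutrophil-like cells. Depth limits Il1a and every gene of the small classes of replicate 1, where 1 UMI is worth 19.9 CPM in neutrophil-like cells.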
